A study of Homo sapiens with 3 samples.

Results

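The autophagy machinery genes were 37 protein-coding genes, of 20037 on chromosomes 1 to 22, X and Y, whose products build the autophagosome, attach ATG8 proteins to it or bring cargo to it. They were taken by name from gene records of assembly GRCh38, the build called hg38 by the submitters, and all 37 names matched a record. Their peaks were described in THP1, a human monocytic leukaemia line, carrying the wild type genotype and exposed for 24 h to PMA, a phorbol ester that makes the cells differentiate in the direction of macrophages. Chromatin was precipitated with an antibody to acetylated lysine 27 of histone H3 (H3K27ac) in 1 library and with an antibody to the deacetylase SIRT1 in 1 other. Both were PMA-treated, the input library was not analysed here, and no untreated cells were compared. With 1 library per antibody there was no replicate check, so counts and values are given without p-values.

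Autophagy encloses cytoplasm in a double membrane that fuses with the lysosome. The ULK kinase complex starts the process, ATG9 vesicles and ATG2 supply lipid, and a class III phosphatidylinositol 3-kinase marks the growing membrane. A pair of ubiquitin-like conjugation reactions then attaches LC3 and GABARAP proteins to that membrane, where cargo receptors such as p62 (SQSTM1) bind them. In macrophages the pathway clears intracellular bacteria and damaged organelles. H3K27ac is found at promoters and enhancers in use, and SIRT1 is an NAD-dependent deacetylase known to deacetylate several autophagy proteins.

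There were 50268 peaks for H3K27ac and 96805 for SIRT1. The authors' fold of a peak is its fragments over a local background. The sources used here do not say which library gave that background, so folds were compared within a list only. At their summits H3K27ac peaks had a median of 15 fragments and SIRT1 peaks a median of 3. As a check of the cell type, 9 of 10 monocyte and macrophage markers carried H3K27ac at a gene end, all but LYZ. So did 2 of 8 T cell markers and 1 of 5 each for B cell, epithelial and hepatocyte markers.

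H3K27ac marked a gene end of nearly the whole machinery, and SIRT1 peaks were found at the end of a single member. A gene end here means the first or last base of the record and the 1 kb to its left and right, and a peak counts when it shares at least 1 base with that window. Of the 37 members, 34 had an H3K27ac peak at an end, or 91.9% (95% exact binomial interval 78.1 to 98.3), and 56.7% of all protein-coding genes did. The members without one were ULK2 and ATG101 of the initiation complex and the protease gene ATG4A. A SIRT1 peak lay at an end of 1 member, ATG13, or 2.7% (interval 0.0684 to 14.2), beside 10.8% of all genes. Inside the records and away from the ends, 14 members held H3K27ac (37.8%, interval 22.5 to 55.2, beside 30.2% of all genes). There 23 held SIRT1 (62.2%, interval 44.8 to 77.5, beside 47.7%). For SIRT1 at an end and for both counts inside, the interval includes the share of all genes. Members had longer records than genes in general, and among records over 60 kb H3K27ac lay inside 5 of 13 members, beside 52.6% of all genes. It lay inside 7 of 14 members from 20 to 60 kb (35.2% of all genes) and 2 of 10 up to 20 kb (13.7%). In no member did a SIRT1 peak share a base with an H3K27ac peak, and 2.23% of all genes had such a pair.

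In strength the marked members differed widely among themselves. For each gene the strongest H3K27ac peak at an end was taken. Its fold ran from 5.10 at MAP1LC3A to 99.1 at ATG7, with a median of 19.5 over 34 members. Over the 11354 marked genes the median was 19.0 and the range 2.42 to 209.9. The median width was 1595 bp, against 1533.5 bp over all marked genes. Counting intervals of the fold (95% exact Poisson, counting error only) hold the local background fixed. They lay wholly above the median of all genes in 12 members, wholly below it in 10 and across it in 12. A difference in fold between genes can come from the fragments, the background or both. The mark was found at a larger share of these genes than of all genes, and where it was found its fold and width were spread around the same medians.

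**Figure D1:**
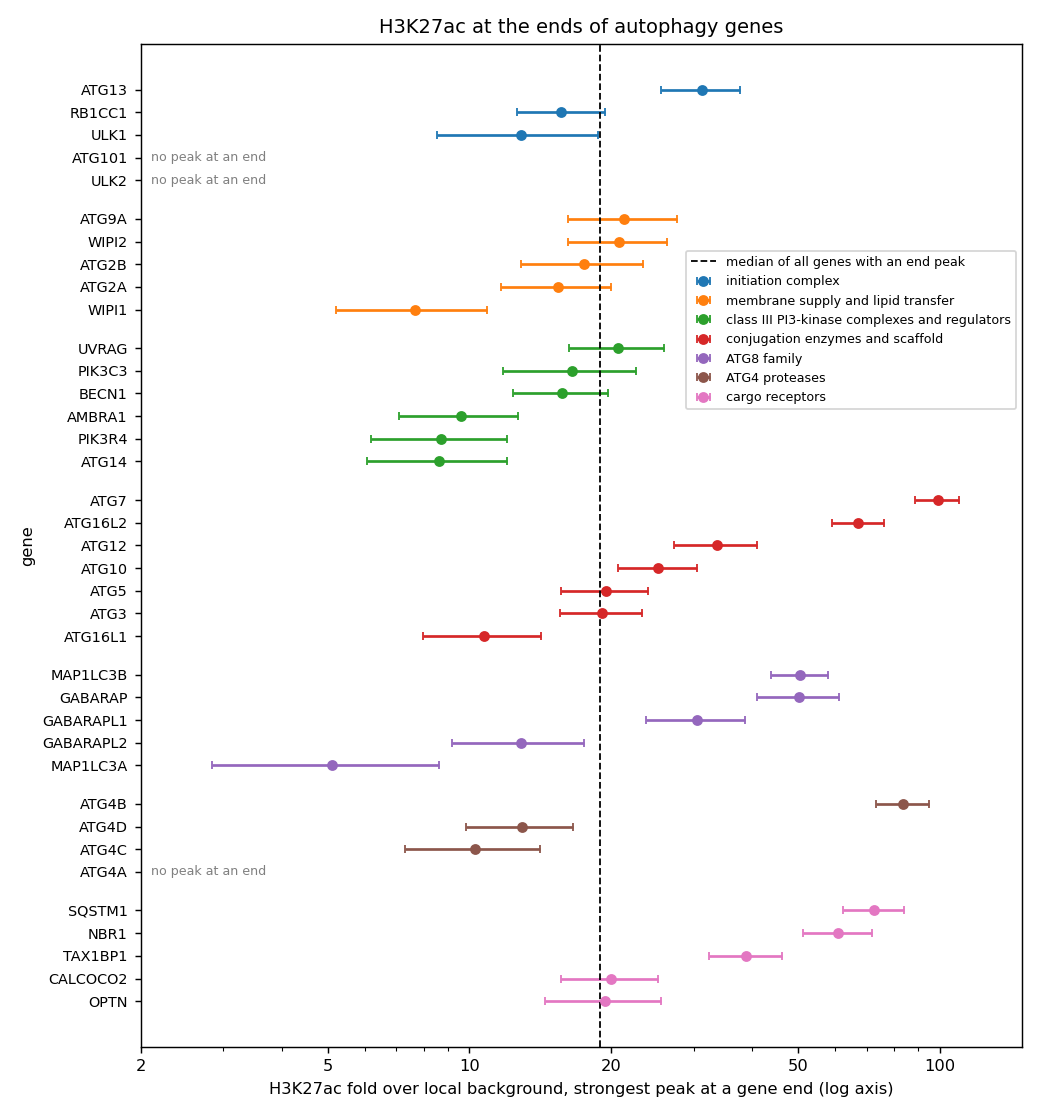
Fold of the strongest H3K27ac peak at a gene end (log axis) for each autophagy gene, grouped by role, with 95% exact Poisson intervals of the fragments at the summit as bars and the median of all marked genes as a dashed line. ATG7, ATG4B and SQSTM1 lie highest, MAP1LC3A lowest, and ATG101, ULK2 and ATG4A have no peak at an end.

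The 33 members with a strand in the RefSeq promoter table allowed the start to be told from the other end; RB1CC1, ATG4D, MAP1LC3A and UVRAG are not in that table. H3K27ac lay at the start of 30 of the 33 (beside 56.8% of 15843 genes with a strand) and at the other end of 5 (beside 11.2%). Those 5 were GABARAP at 50.2, NBR1 at 21.4, ATG5 at 9.10, ATG13 at 5.07 and ATG2A at 4.22. Each of these 5 peaks had its summit outside the record, beyond that end. ATG13 also had a weaker peak at that end with its summit inside the record, with a fold of 3.52. The strongest peak covered the first base of the record in 25 members. In those its summit was downstream of that base in 20 (beside 76.7% over all genes), at a median of 186 bp, against 197 bp over all genes. The peaks reached a median of 745 bp upstream and 948 bp downstream. At PIK3R4, WIPI1, OPTN and TAX1BP1 the strongest peak began just downstream of the first base and did not cover it. PIK3R4 had a second, weaker peak on the upstream side, with its summit at -718 bp and a fold of 5.09.

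**Figure D2:**
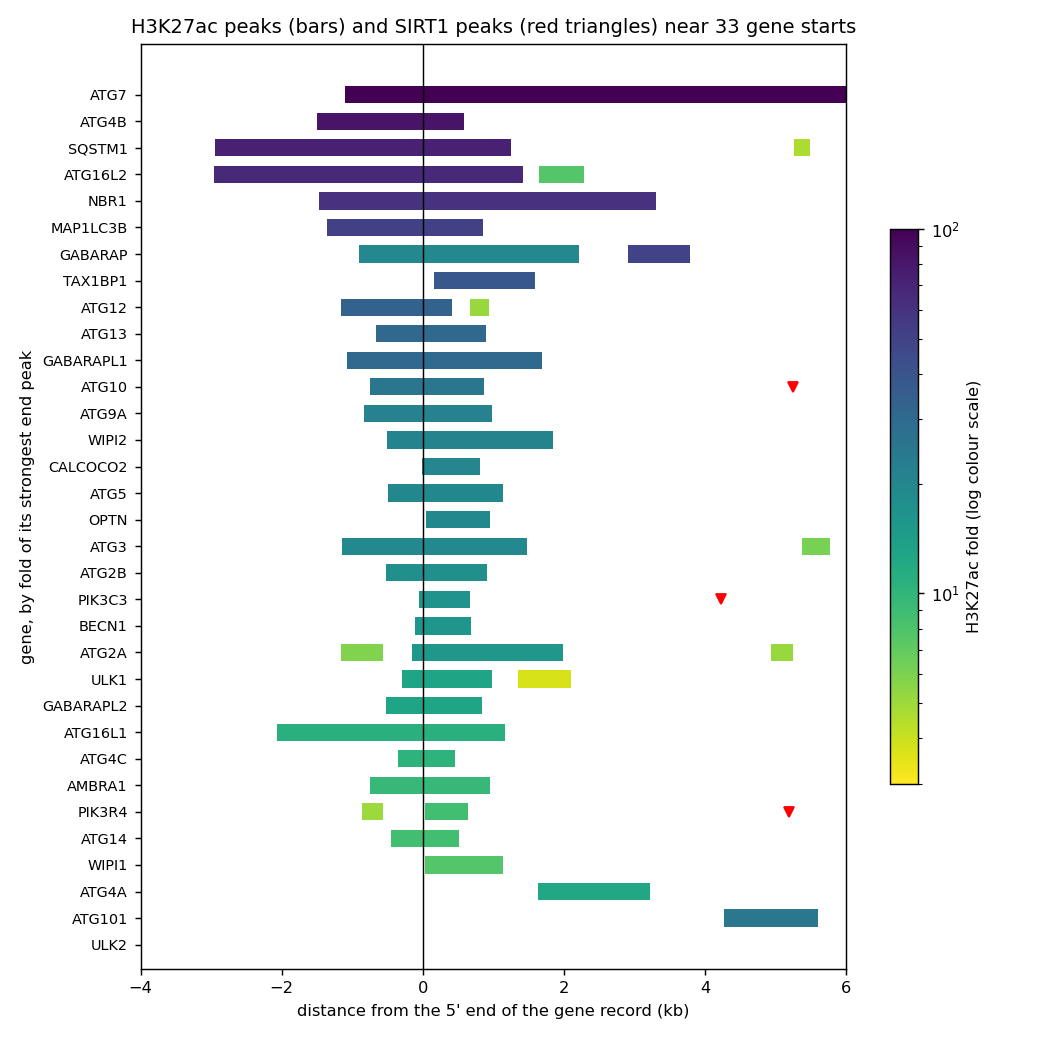
H3K27ac peaks (bars, coloured by fold on a log scale) and SIRT1 peaks (red triangles) from 4 kb before to 6 kb after the 5′ end of 33 records, with genes ordered by the fold of the strongest end peak. Only peaks inside a record or within 1 kb of its ends are drawn, so peaks lying wholly farther upstream are not shown. Most bars span the start, those of ATG101 and ATG4A lie inside the record, ULK2 has none, and no triangle lies at a start.

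The promoter sequences below are shown because they contrast the strongest acetylated starts, a start inside its record, and a start with no peak. They are the bases just before the RefSeq start on the gene's own strand, 250 in each except ATG4B, where 116 bases separate the start from the record of THAP4. Capitals mark GC boxes, GGGCGG on either strand, the letters bound by SP1-family factors. ATG7 (chr3:11272147-11272396, plus strand) and ATG4B (chr2:241637577-241637692, plus strand) had the highest folds. The window of SQSTM1, next in fold, lies inside the record of MGAT4B and is not printed, so ATG16L2 (chr11:72814161-72814410, plus strand) follows. ATG101 (chr12:52069728-52069977, plus strand) starts 4678 bp into its record, and ULK2 (chr17:19867937-19868186, minus strand) had no peak. The last 3 were chosen after their values were seen.
ATG7: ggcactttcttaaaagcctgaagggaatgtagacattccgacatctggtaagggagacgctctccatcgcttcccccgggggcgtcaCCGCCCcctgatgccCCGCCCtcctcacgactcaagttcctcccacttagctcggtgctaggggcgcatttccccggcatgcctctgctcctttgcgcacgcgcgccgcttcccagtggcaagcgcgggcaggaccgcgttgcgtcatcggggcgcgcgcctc
ATG4B: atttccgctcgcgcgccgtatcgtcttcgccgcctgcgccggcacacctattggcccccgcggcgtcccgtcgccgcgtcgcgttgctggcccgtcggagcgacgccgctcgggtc
ATG16L2: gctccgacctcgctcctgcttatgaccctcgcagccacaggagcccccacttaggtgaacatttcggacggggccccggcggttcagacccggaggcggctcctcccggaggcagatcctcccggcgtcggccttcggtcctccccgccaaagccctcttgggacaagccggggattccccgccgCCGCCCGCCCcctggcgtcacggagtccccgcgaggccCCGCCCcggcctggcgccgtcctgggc
ATG101: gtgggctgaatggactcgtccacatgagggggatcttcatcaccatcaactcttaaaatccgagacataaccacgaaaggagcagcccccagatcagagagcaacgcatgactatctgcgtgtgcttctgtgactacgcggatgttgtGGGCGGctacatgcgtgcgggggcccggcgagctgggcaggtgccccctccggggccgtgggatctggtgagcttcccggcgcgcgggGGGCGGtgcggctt
ULK2: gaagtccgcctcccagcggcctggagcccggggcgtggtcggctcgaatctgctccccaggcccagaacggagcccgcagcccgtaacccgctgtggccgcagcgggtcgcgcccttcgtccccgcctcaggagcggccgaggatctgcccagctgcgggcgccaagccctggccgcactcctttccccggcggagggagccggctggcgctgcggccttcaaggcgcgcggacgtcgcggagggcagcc

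Sequence features of the promoters were counted in the 250 bases before each of 41 listed starts of the 33 members, and in 22199 such windows of all protein-coding genes. The GC box was held by 28 of the 41 windows (68.3%, beside 53.7% of all windows). Of the 5 sequences printed, ATG7 and ATG101 had 2 GC boxes each, ATG16L2 had 3, a pair of which overlap, and ULK2 had none. ATG4B had none in its 116 printed bases, but its full window of 250 bases held the GC box. The ETS letters CCGGAAG were in 7 windows (17.1%, beside 10.7%) and the CCAAT box in 12 (29.3%, beside 32.7%). The E-box CACGTG, the core of the site read by the lysosome and autophagy regulator TFEB, was in 2 (4.88%, beside 7.37%). They were the windows of ATG3, with its first base 18 bases before the start, and of ATG14, 21 bases before it. The longer form TCACGTGA was in none (1.13% of all), nor were the AP-1 letters TGACTCA (3.45%) and the PU.1-like GAGGAAGT (2.23%). The CRE letters TGACGTCA were in the window of GABARAPL1 alone (2.01% of all), the NRF1-like TGCGCATGC in that of MAP1LC3B (1.59%), and TATAAA in 2 (9.0%). All motifs were searched on both strands, and the longer E-box contains the shorter. The windows had a median GC content of 62.4% (62.0% over all) and a median of 20 CpG dinucleotides (16 over all). A match is a run of letters and not a measured site.

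The initiation complex had the lowest share of genes with an acetylated end, 3 of 5. ATG13, the regulatory subunit that links the kinase to its partners, had a peak with a fold of 31.2 (interval 25.6 to 37.7) on 105 fragments. It lay on chromosome 11 from 46616895 to 46618456, across the start. RB1CC1, the FIP200 scaffold, had a fold of 15.7 at 1 end of its record on chromosome 8, and ULK1, the kinase itself, one of 12.9 (8.52 to 18.8) on 25 fragments. The intervals of RB1CC1 and ULK1 overlap, and both lie below that of ATG13. RB1CC1 had 86 fragments over a background 4.85 times the lowest in the list, and ULK1 had its 25 over 1.09 times.

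ATG101, whose product stabilises ATG13, had no peak at the ends of its record (chromosome 12, 52065300 to 52077495). Its listed start, the base after the sequence shown above for ATG101, was covered by a peak of fold 25 (52069563 to 52070897, interval 21.5 to 28.9) on 178 fragments. The local background under that peak was 6.58 times the lowest in the list. Counted at a record end or any listed start, an alternative chosen after seeing the data, 36 of the 37 members were acetylated. The share of all genes by that rule was not computed, so this count has nothing to be set against. The member with no mark was ULK2, the second kinase of the family (chromosome 17, 19770830 to 19867936). Its record of 97.1 kb held neither an H3K27ac nor a SIRT1 peak. Of the 5378 genes with records over 60 kb, 25.1% had no H3K27ac peak and 1.65% had no peak of either list.

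Membrane supply and lipid transfer genes were all acetylated, 5 of 5, at a median fold of 17.5. ATG9A, the lipid scramblase carried by seed vesicles, had the highest fold, 21.3 (16.2 to 27.6), on chromosome 2 from 219228651 to 219230467. WIPI2, a phosphoinositide reader that recruits the conjugation scaffold, followed at 20.8 (16.2 to 26.3). The lipid transfer genes ATG2B and ATG2A had 17.5 and 15.5. These 4 intervals overlap one another. WIPI1, a relative of WIPI2, was lower, at 7.66 (5.21 to 10.9) on 29 fragments.

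The lipid kinase genes were also acetylated throughout, 6 of 6, with the lowest median fold of the 7 role groups, 12.7. UVRAG, a subunit of the endosomal form of the complex, had 20.7 (16.3 to 26.0). PIK3C3, the catalytic subunit VPS34, had 16.5 (11.8 to 22.6) and BECN1, the Beclin 1 subunit, 15.7 (12.4 to 19.7). AMBRA1, a regulator of Beclin 1, had 9.61, the membrane-anchoring subunit PIK3R4 had 8.72, and ATG14, which defines the autophagy form, had 8.64 (6.06 to 12) on 34 fragments. The intervals of these last 3 overlap each other and do not reach the 16.3 at which that of UVRAG begins. Backgrounds differed within the group. PIK3C3 had 37 fragments over a background 1.38 times the lowest in the list, and PIK3R4 had 36 over 3.46 times. UVRAG had 74 fragments over 2.79 times and BECN1 76 over 4.15 times. The peaks of PIK3R4 and PIK3C3, 609 and 730 bp wide, were among the 3 narrowest of the 34 strongest peaks.

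The conjugation enzymes included the highest fold of all members. All 7 were acetylated, at a median of 25.2. ATG7, the E1-like enzyme that activates both ATG12 and the ATG8 proteins, led all members with a fold of 99.1 (88.6 to 110) on 323 fragments. Its peak ran on chromosome 3 from 11271292 to 11292567, and its 21276 bp made it the widest end peak of the 34. It reached 20170 bp into the gene and 1105 bp upstream, and its fold exceeded that of 99.1% of marked genes.

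ATG16L2, a homologue of the conjugation scaffold ATG16L1, followed at 67.0 (58.9 to 76.1) on 240 fragments, with a peak 4381 bp wide. ATG16L1 itself had 10.7 (7.97 to 14.2) on 48 fragments, with a peak 3231 bp wide. The intervals of the 2 scaffold genes do not overlap. ATG12, the ubiquitin-like protein, had 33.6 and the E2-like enzyme gene ATG10 25.2. ATG5, the acceptor of ATG12, had 19.5, and ATG3, the E2-like enzyme for ATG8 proteins, had 19.2. ATG12, ATG10, ATG5 and ATG3 each had their strongest peak across the start.

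Among the ATG8 family, whose products coat the membrane, all 5 genes had an end peak, at a median fold of 30.4. MAP1LC3B, which encodes the commonly measured LC3B, had 50.5 (43.8 to 58.0) on 200 fragments, on chromosome 16 from 87390976 to 87393183. GABARAPL1 had 30.4 (23.7 to 38.5) and GABARAPL2 12.9 (9.19 to 17.5). For GABARAP the strongest peak, with 50.2, lay at the far end of a record of 2.44 kb, where PHF23 has a record end 820 bp away. The peak over the GABARAP start had 19.2 (15.0 to 24.3), and with that value in its place the family median is 19.2. MAP1LC3A was the weakest of all members at its ends, with 5.10 (2.83 to 8.62) on 12 fragments and a width of 290 bp. That peak, from 34561069 to 34561358, lay wholly outside the record, which ends at 34560345. PIGU has a record end 197 bp from an end of MAP1LC3A. A stronger peak lay inside its record, on chromosome 20 from 34558031 to 34559270, with 12.8 (9.95 to 16.3). The intervals of MAP1LC3B and GABARAPL1 lie above those of GABARAPL2 and MAP1LC3A. That of the GABARAP start peak overlaps those of GABARAPL1 and GABARAPL2.

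Of the ATG4 proteases, which trim ATG8 proteins and release them from the membrane, 3 of 4 had an end peak. ATG4B stood at 83.4 (73.1 to 94.8) on 234 fragments, on chromosome 2 from 241636187 to 241638272. ATG4D had 12.9 (9.86 to 16.6) and ATG4C 10.3 (7.29 to 14.1), and these 2 intervals overlap. ATG4A, on chromosome X, had no end peak. Its listed start was covered by a peak of fold 12.4 (8.04 to 18.3) that ran from 108090461 to 108092053. That start lies 2949 bp into the record.

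Cargo receptors had the highest median fold of the 7 groups, 38.8, with 5 of 5 acetylated. SQSTM1, the p62 receptor for ubiquitinated cargo, had 72.6 (62.3 to 84.1) on 175 fragments, on chromosome 5 from 179803451 to 179807637. A second wide peak inside its record, from 179816034 to 179821920, had 53.9 (46.7 to 62.0) on 194 fragments and covered another listed start of the gene, 14512 bp into the record. NBR1, a related receptor, had 60.9 (51.1 to 71.9) with a peak 4791 bp wide that also spans the end of another protein-coding record. TAX1BP1 had 38.8 (32.4 to 46.2). CALCOCO2, the NDP52 receptor for bacteria, had 20.03 (15.7 to 25.2) and OPTN, optineurin, 19.5 (14.5 to 25.5), and these 2 cannot be told apart by their intervals.

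A peak near a gene end is not always that gene's own. Of the members, 16 (43.2%) had the end of another protein-coding record within 1 kb of one of their ends, beside 28.5% of all genes. ATG4B is 117 bp from THAP4, MAP1LC3B 215 bp from FBXO31 SQSTM1 473 bp from MGAT4B, and NBR1 82 bp from another protein-coding gene, so each of these high peaks lies over the ends of both genes. ATG7, ATG16L2 and GABARAPL1 had no such neighbour. Across the 34 members fold and width of the strongest peak rose together, with a Pearson r of 0.687 on log2 values and a Spearman rho of 0.577, beside 0.747 and 0.733 over all marked genes. Genes of 1 library are not independent replicates, and the numbers are a description.

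Away from the ends the acetylation of this gene set was concentrated in ATG7. The 14 members with H3K27ac inside the record held 74 such peaks, of which ATG7 had 37, UVRAG 6, WIPI2 and SQSTM1 5 each, and ATG5 and AMBRA1 4 each. Per 100 kb of record the members had 2.85 such peaks, beside 1.66 over all genes, and 1.62 without ATG7, an alternative chosen after seeing the data. H3K27ac covered 19.2% of the ATG7 record, 28.3% of SQSTM1 and 91.0% of the short GABARAP record. The median covered share was 4.85% over members and 1.47% over all genes, marked or not.

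Within ATG7 29 of the 37 internal peaks had their summit in the first 120 kb. Their folds ran from 3.06 to 75.6 with a median of 4.79, and 5 exceeded 8. The strongest spanned 11362110 to 11369991, with its summit 92344 bp into the gene and 146 fragments. The next, with 40.4 (33.5 to 48.3), spanned 11303954 to 11310595. In UVRAG the 6 internal peaks had folds of 3.35 to 7.81, and in WIPI2 the 5 had 3.42 to 5.66. ATG10, nearly as long as ATG7 at 284 kb, had no H3K27ac peak inside its record.

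**Figure D3:**
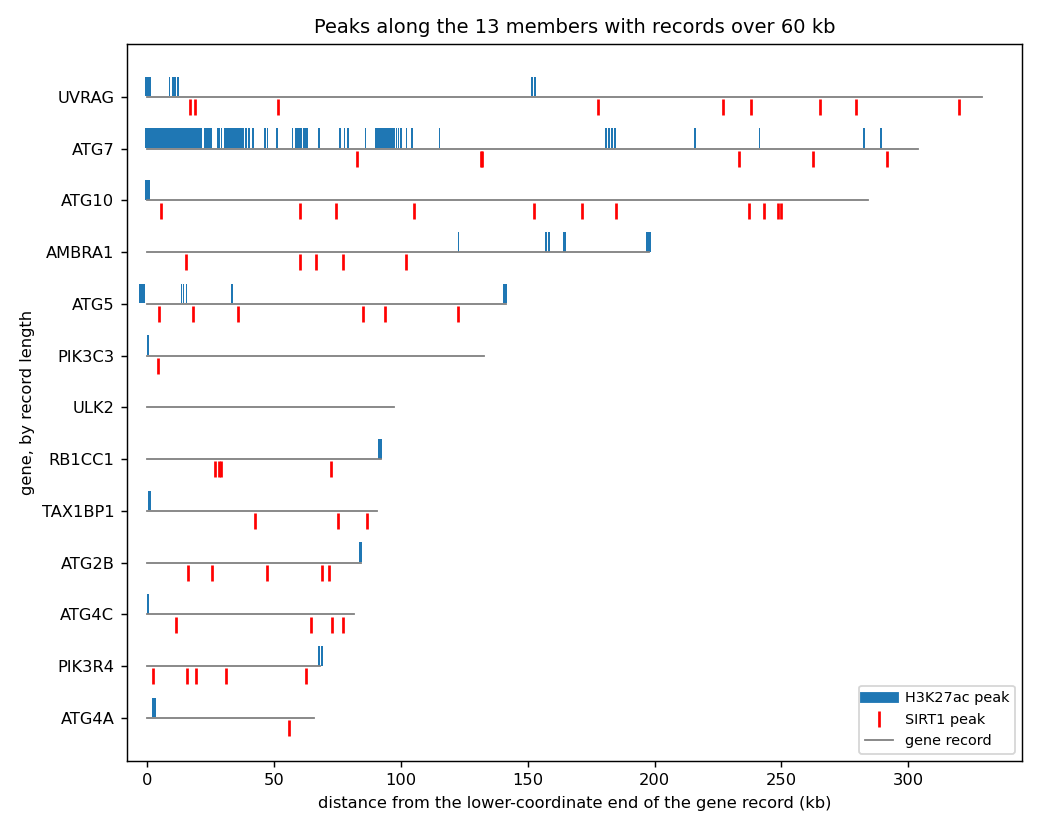
H3K27ac peaks (blue, above the line) and SIRT1 peaks (red, below it) along the 13 member records over 60 kb (grey), in kb from the lower-coordinate end. ATG7 is filled with blue over its first part, the others are mostly marked near an end, and ULK2 is empty in both lists.

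SIRT1 peaks in the machinery genes rested on few fragments, as did those of the whole SIRT1 list. Including the peak at the end of ATG13, 23 members held 76 peaks, of which 30 had 2 fragments at the summit, 34 had 3, 11 had 4 and 1 had 5. None reached a q of 0.05, and the highest −log10 q was 0.614. Over the whole list 144 of 96805 SIRT1 peaks reached that q. There 38487 had 2 fragments, 43202 had 3 and 15114 had 4 or more, so the low counts are not particular to these genes. The median fold of the members' peaks was 2.80, against 2.78 over all 96805 SIRT1 peaks. In 49 of the 76 (64.5%) the background was the lowest of the list, so folds took a few fixed levels, 2.20 on 2 fragments, 2.94 on 3 and 3.67 on 4.

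The peak on 5 fragments lay in UVRAG, on chromosome 11 from 75831798 to 75832083, with a fold of 4.41 (1.93 to 9.30). Peaks on 4 fragments were found in UVRAG, ATG2A, ATG2B, ATG4A, ATG4B, ATG5, ATG10, ATG14, PIK3R4 and RB1CC1, with folds of 3.01 to 3.67. Their intervals overlap that of the UVRAG peak. The peak at the far end of ATG13, from 46674467 to 46674779, had a fold of 2.17 on 2 fragments. Its interval, 0.90 to 5.96, includes 1. It lay 83 bp from an H3K27ac peak of fold 5.07.

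The count of SIRT1 peaks inside a record followed the length of the record, with a Pearson r of 0.861 and a Spearman rho of 0.828 over the 37 members. ATG10 had 11, UVRAG 9, and ATG7 and ATG5 6 each. Members had 2.89 such peaks per 100 kb, beside 3.13 over all genes. Of the 10 members up to 20 kb long 0 held an internal SIRT1 peak (15.3% of all genes of that length did), of the 14 from 20 to 60 kb 11 did (58.3%), and of the 13 over 60 kb 12 did (91.0%), with ULK2 as the exception. The median record was 38.2 kb over members and 24.1 kb over all genes. The 5 ATG8 family genes, all under 20 kb, had no SIRT1 peak, and each of the 5 cargo receptors had at least 1.

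**Figure D4:**
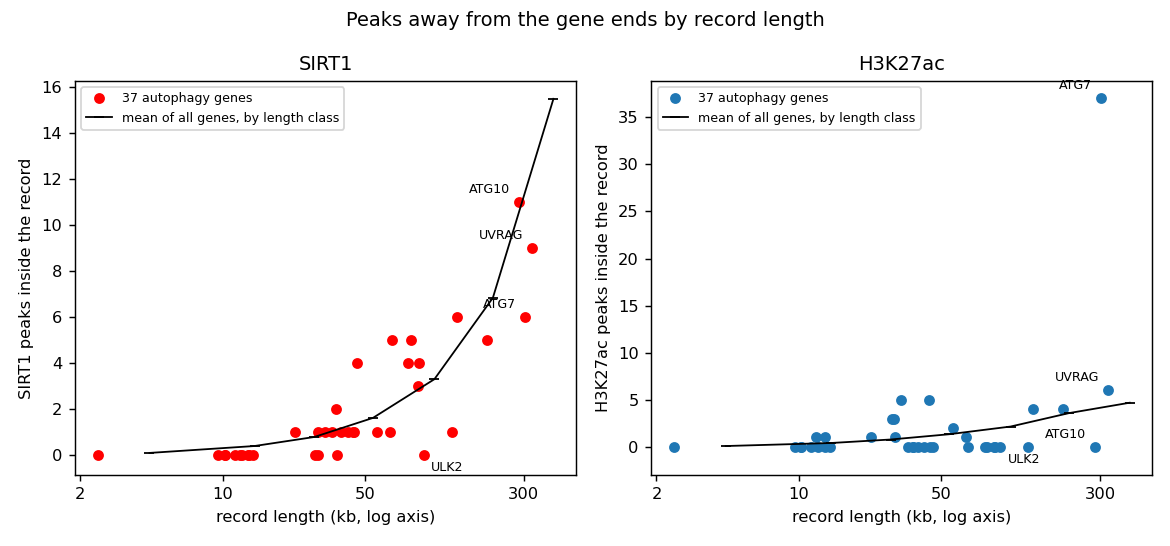
SIRT1 peaks (left) and H3K27ac peaks (right) inside each of the 37 records, away from the ends, against record length (log axis), with the mean of all genes in length classes as a black line. SIRT1 counts climb with length as the line does, with ATG10 highest at 11 and ULK2 at 0, and in the right panel ATG7 stands at 37 with every other gene at 6 or fewer.

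None of the members' 76 SIRT1 peaks shared a base with an H3K27ac peak. The nearest H3K27ac peak was a median of 36.0 kb away and at most 151 kb, the latter in ATG10. In 2 cases it was within 1 kb, at ATG13 and at SQSTM1, where a SIRT1 peak on 3 fragments lay 84 bp from an H3K27ac peak of fold 5.04. Over the whole list 721 of 96805 SIRT1 peaks shared a base with H3K27ac, so 0 of 76 is not a result about these genes. The distances were not computed over the whole list, so they have nothing to be set against.

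Other genes of the pathway gave like counts. Of 39 genes that act upstream, in membrane expansion, in fusion with the lysosome or in selective autophagy, 36 had H3K27ac at an end, at a median fold of 25.2. The exceptions were PRKAA2, a catalytic subunit of the energy sensor AMPK, the ATG9 homologue ATG9B, and the mitophagy receptor FUNDC1. The highest folds were those of WDFY3, the ALFY scaffold for aggregates, at 68.7, RAB7A, the late endosome GTPase, at 68.3, and the kinase gene TBK1, which phosphorylates cargo receptors, at 60.3. By group H3K27ac marked 5 of 6 upstream kinases and sensors, 9 of 10 early membrane genes, 13 of 13 fusion genes and 9 of 10 selective autophagy genes. A SIRT1 peak lay at the end of 1 of them, NRBF2, a subunit of the lipid kinase complex, with a fold of 2.94 on 3 fragments.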

How the data were processed

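Peak lists of chromatin immunoprecipitation sequencing were used, 1 for H3K27ac and 1 for SIRT1, from PMA-treated THP1 cells, with 1 library per antibody. MACS2, deepTools and hg38 are named, per the submitters' processing notes; the sources used here give no aligner, version or control for the peak calling. A duplicate-marking step is named within the peak names. The fold of each peak (a ratio), its −log10 p and −log10 q, a score and the summit position were deposited by the authors. The H3K27ac list held no −log10 q under 1.30, and the SIRT1 list no −log10 p under 2.00, with −log10 q down to 0, so the lists were filtered differently.

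Fragments and background at each summit were recovered from fold and −log10 p, with 1 whole-number solution in 99.97% of H3K27ac and 99.998% of SIRT1 peaks. On simulated peaks, 2000 per list, the step returned the number in 100% of both. Read totals were not at hand. Records and promoter sequences are RefSeq, GRCh38.p14. Exons and introns were not used, so a place is an end or the inside of a record. Intervals are 95% exact Poisson or binomial and cover counting error only; fragments need not be independent molecules.

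The members and lists were chosen with earlier results of these data known. Named genes were the highest and lowest fold of each role group, members with no end peak, the SIRT1 peaks on most fragments, the widest and narrowest peaks, and those with most internal peaks; other members are given by value as well. Alternatives were other end windows, summits, stricter peaks and other overlaps. Values were computed in Python 3.11.15 with scipy 1.17.1, pandas 2.3.3 and numpy 2.4.6, and plots drawn with matplotlib 3.10.9.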

Additional observations from a re-analysis of the deposited data

How the results depend on the processing

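Of 51 alternative values, 41 stayed within 1.5 times the reported count or within the 95% interval of the reported median. H3K27ac lay at the ends of 33 to 36 of the 37 members across its alternatives, or at 30 of 33 by record start only. Over all genes the share was 54.7% with a window of 500 bp and 59.7% with 2500 bp. The count of members acetylated at the other end, 5, became 3 with a window of 500 bp and 3 when the summit had to lie in the window. Members with SIRT1 at an end, 1, became 4 with a window of 2500 bp, and 0 with a −log10 q of at least 5, a fold of at least 4 or at least 4 fragments. Members with SIRT1 inside, 23, became 0, 1 and 10 under those 3 settings. Without ATG7, H3K27ac peaks inside records fell from 2.85 to 1.62 per 100 kb. Fewer peaks pass the stricter settings by construction; otherwise the cause was not tested. No paired analysis was possible because each antibody had 1 library. At the summit, 64 of the members' 76 SIRT1 peaks had no more than 3 fragments. Without read totals, whether these low counts came from sequencing depth was not tested. A member without a SIRT1 peak was therefore not shown to be free of SIRT1.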

Other observations

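Stitching neighbouring H3K27ac peaks at the distance in common use for super-enhancers gave 19489 domains, and 36 of the 37 members had a domain over their record. A lone peak also counts as a domain, and the share of all genes with a domain over the record was not computed. The longest per member had a median of 2.40 kb, and single domains had a median of 1.90 kb over the whole list. These 2 medians are not alike, because the first takes the longest domain of each gene. The longest domain per gene was not computed over all genes. Among the 1000 longest domains were those over 5 members. The share of all protein-coding genes under these domains was not computed, so the count has nothing to be set against. The domain over ATG7 ran on chromosome 3 from 11270193 to 11387537, 117.3 kb with 31 peaks, and was 18th in length. ATG16L2 lay in one of 46.9 kb with 11 peaks, SQSTM1 in one of 36.2 kb with 8, ATG16L1 in one of 31.2 kb with 11, and GABARAP in one of 29.9 kb with 7. ATG16L1 had a fold of 10.7 at its start and lay at the edge of its domain, which ran from 233221634 to 233252833 on chromosome 2 and mostly upstream of the gene's start at 233251673.

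Around ULK2 the interval without H3K27ac peaks was 223.5 kb, from the peak ending at 19753232 to the one starting at 19976702 on chromosome 17, the latter with a fold of 63.0. The interval without SIRT1 peaks was 349.6 kb, from 19703976 to 20053609. The ULK2 promoter printed above had a GC content of 76.0% and no GC box in the 250 bases before the start. Windows of some acetylated members, such as ATG12 and ATG13, held no GC box either, and 53.7% of all windows held one. A link between the GC box and the mark was not tested.

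Of the 41 listed starts, 36 had H3K27ac in the window of 250 bases before to 50 bases after the start (87.8%, beside 50.6% of 22199 windows of all protein-coding genes), and 0 had a SIRT1 peak. The 5 windows without H3K27ac were the start of ULK2, the upstream start of TAX1BP1, whose other start 789 bp downstream was covered, and the internal starts of ATG5, WIPI2 and AMBRA1. At SQSTM1 all 3 listed starts were covered.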
